A study of Mus musculus with 6 samples.

Results

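The 10 genes described here code for checkpoint and costimulatory molecules that antigen-presenting cells show to T and NK cells. The label holds loosely, since Cd40 is a receptor and Lgals9 a lectin. They were chosen by name, with earlier results of these data known. All 10 were found among the 23930 genes of the deposited table, each with 1 amplicon. Cells carrying CD31, an adhesion molecule of endothelial cells that many leukocytes and platelets also carry, had been sorted from subcutaneous tumours of the mouse line Lewis lung carcinoma (LLC), grown for 2 weeks in C57/Bl6 mice. In 3 libraries (replicates 4, 5 and 6) the injected LLC cells overexpressed BMP9, a bone morphogenetic protein to which endothelial cells respond. In 3 libraries (replicates 1, 2 and 3) control LLC cells had been injected. The labels do not say how control cells were made, whether each line is 1 clone, or whether each library is from an animal of its own. The p-values therefore rest on the spread between libraries alone, part or all of which may be technical. Libraries held from 1321762 to 28380957 reads.

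A T cell that meets antigen reads further signals from the presenting cell. CD80 (Cd80) and CD86 (Cd86) bind CD28, which activates, and CTLA-4, which inhibits. PD-L1 (Cd274) and PD-L2 (Pdcd1lg2) bind the inhibitory receptor PD-1. The ICOS ligand (Icosl) costimulates through ICOS, and the 4-1BB ligand (Tnfsf9), a member of the tumour necrosis factor family, through 4-1BB. CD40 (Cd40) is itself a receptor, through which T cells carrying CD40 ligand activate the presenting cell. B7-H3 (Cd276) belongs to the B7 family with CD80, CD86, both PD-1 ligands and the ICOS ligand, and its receptor is not settled. The poliovirus receptor (Pvr) binds the activating receptor CD226 and the inhibitory receptors TIGIT and CD96, and galectin-9 (Lgals9) is a secreted lectin that binds TIM-3. Macrophages and dendritic cells are main sources of these molecules, though several of them are also found on endothelial and tumour cells.

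The promoter windows of 4 of these genes are shown because they cover the PD-1 ligands, which lie side by side and of which Pdcd1lg2 alone passed the test, the gene with the largest change, and the gene with motif matches. Each window runs from 250 bases before to 50 bases after the RefSeq start, 5′ to 3′ on the strand of the gene (GRCm38.p6). Capitals mark matches to any of 4 motifs searched on both strands: TTCNNNGAA, a STAT site, an interferon-response element of GAAA and GAAA separated by 2 bases, an NF-κB site of GGG and TTTCC separated by 2 bases, and GGCGCC, an element bound by BMP SMAD proteins.
Cd80, chr16:38458683-38458982, plus strand: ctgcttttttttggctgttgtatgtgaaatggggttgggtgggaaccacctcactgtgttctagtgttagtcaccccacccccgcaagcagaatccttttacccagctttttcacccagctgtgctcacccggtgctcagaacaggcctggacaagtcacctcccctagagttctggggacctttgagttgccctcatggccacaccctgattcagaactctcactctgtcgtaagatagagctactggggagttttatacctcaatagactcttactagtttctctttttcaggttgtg
Pdcd1lg2, chr19:29410669-29410968, plus strand: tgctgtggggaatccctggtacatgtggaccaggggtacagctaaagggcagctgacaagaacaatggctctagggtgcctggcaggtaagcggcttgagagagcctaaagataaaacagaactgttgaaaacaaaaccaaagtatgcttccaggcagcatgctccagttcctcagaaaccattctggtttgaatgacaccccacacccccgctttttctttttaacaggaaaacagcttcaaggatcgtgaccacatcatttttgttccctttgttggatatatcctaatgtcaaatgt
Cd274, chr19:29367188-29367487, plus strand: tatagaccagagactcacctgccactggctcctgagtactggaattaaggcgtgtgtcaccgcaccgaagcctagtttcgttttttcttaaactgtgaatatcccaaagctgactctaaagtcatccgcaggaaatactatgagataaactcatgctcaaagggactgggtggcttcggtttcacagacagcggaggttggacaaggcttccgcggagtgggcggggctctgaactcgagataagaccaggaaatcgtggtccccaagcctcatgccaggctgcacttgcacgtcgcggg
Lgals9, chr11:78984875-78985174, minus strand: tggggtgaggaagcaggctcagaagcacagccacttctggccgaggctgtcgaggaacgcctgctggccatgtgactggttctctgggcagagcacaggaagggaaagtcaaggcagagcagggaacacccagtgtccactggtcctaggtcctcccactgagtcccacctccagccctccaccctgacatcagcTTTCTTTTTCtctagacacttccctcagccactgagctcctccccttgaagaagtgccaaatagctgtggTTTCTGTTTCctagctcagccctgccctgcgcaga
Of the 6 genes with a window, Lgals9 held 2 matches to the interferon-response element, starting 55 bases before and 15 bases after the start. The windows of Cd80, Pdcd1lg2, Cd274, Icosl and Cd276 held no match to these letters. Of 32851 promoter windows, 8.30% held TTCNNNGAA, 3.44% the interferon-response element, 1.63% the NF-κB site and 11.9% GGCGCC. GC content was 49.7% for Cd80, 46.0% for Pdcd1lg2, 52.7% for Cd274, 58.0% for Lgals9, 68.0% for Icosl and 78.3% for Cd276, against a median of 52.7% over all windows. The RefSeq start of Cd80 lies 3372 bases inside the GENCODE gene, which begins further upstream, so this window is not the only possible start.

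Of the 10 genes, 9 passed the filter of at least 5 RPM (the share of a library's reads that fall on a gene, on a fixed scale) in at least 3 libraries, and 5 of these 9 were higher in BMP9 overexpression libraries: Cd80, Pdcd1lg2, Cd86, Cd276 and Pvr. None was lower. Cd274, Cd40, Icosl and Lgals9 did not pass the test, and Tnfsf9 was below the filter. Over all 9460 genes tested, 35.2% were called, 12.7% higher and 22.5% lower. The groups did not overlap for 6 of the 9 genes, against 48.1% of all tested genes. The median log2 fold change was 1.01 for the 9 genes and -0.24 for all tested genes. With TMM factors, which rescale libraries to a common middle, these medians were 1.26 and 0.00, and 1629 genes were called higher and 1383 lower, against 1200 and 2130 without them, so the values below are to be read against that shift. In bulk RNA, fewer cells of a type and less RNA per cell cannot be told apart.

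**Figure D1:**
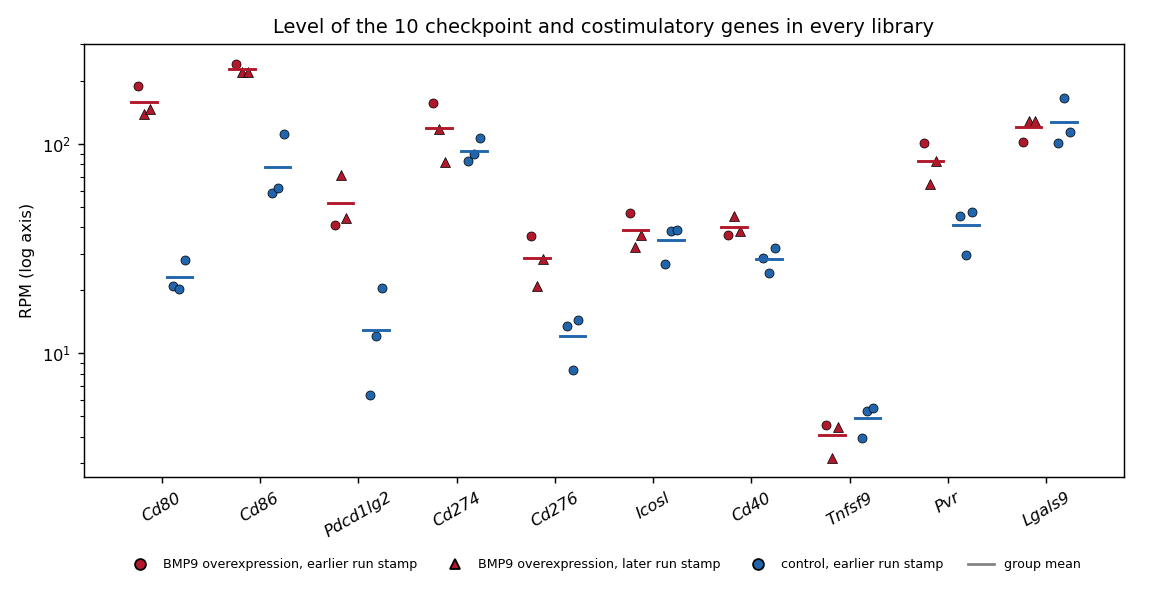
RPM on a log axis for each of the 10 genes in every library, with BMP9 overexpression (red) left of control (blue). Circles are libraries under the earlier run time stamp, triangles those under the later one, and lines are group means. The groups of Cd80, Cd86, Pdcd1lg2, Cd276, Cd40 and Pvr do not overlap.

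Both ligands of CD28 and CTLA-4 rose. Cd80 (chromosome 16, 38455561 to 38496335, mm10, plus strand) had 189.9, 139 and 148 RPM in BMP9 overexpression replicates 4, 5 and 6, against 20.9, 20.4 and 28.0 RPM in control replicates 1, 2 and 3. The lowest BMP9 overexpression library stood far above the highest control library. The rise was 6.64-fold (95% interval 4.39 to 10.04, log2 fold change 2.73, SE 0.28, adjusted p = 9.1e-06), and the log2 fold change was 2.998 within the earlier run time stamp. That stamp, in the sample descriptions, covers the 3 control libraries and BMP9 overexpression replicate 4. The later one covers BMP9 overexpression replicates 5 and 6 and no control library, so values within the earlier stamp set 1 library against 3. They are given as a description with no test.

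Cd86 (chromosome 16, 36603869 to 36666081, minus strand) lies 1.79 Mb from Cd80 on the same chromosome. It had 243, 222 and 221 RPM in BMP9 overexpression replicates 4, 5 and 6, against 58.3, 62.0 and 112 RPM in control replicates 1, 2 and 3. The BMP9 overexpression libraries were close together, with a coefficient of variation of 5.38%, whereas control replicate 3 stood well above the other control libraries and the coefficient there was 38.7%. The groups did not overlap. The rise was 3.06-fold (1.99 to 4.69, log2 fold change 1.61, SE 0.29, adjusted p = 0.00067), and 1.70 on the log2 scale within the earlier stamp.

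In every pairing of a BMP9 overexpression library with a control library, the fold of Cd80 was above that of Cd86. The ratio of Cd80 to Cd86 RPM within a library was 0.783, 0.629 and 0.668 in BMP9 overexpression replicates 4, 5 and 6, against 0.36, 0.329 and 0.25 in control replicates 1, 2 and 3. Amplicons differ in yield, so the ratio is read only between libraries. The mean log2 ratio of RPM + 1 was -0.53 ± 0.16 in BMP9 overexpression and -1.65 ± 0.28 in control libraries (SD, n = 3 each), a difference of 1.12 (exact two-sided permutation p = 0.1, the smallest that 3 against 3 libraries allow). The adjusted p over the 2 ratios tested was also 0.1. The receptor genes of this pair were lower in BMP9 overexpression libraries. Cd28 was at 62.7 ± 12.6 RPM in BMP9 overexpression and 191 ± 25.1 RPM in control libraries (SD, n = 3 each; log2 fold change -1.60, adjusted p = 0.00039). Ctla4 was at 74.2 ± 37.2 RPM in BMP9 overexpression and 143 ± 30.3 RPM in control libraries (-1.02, adjusted p = 0.026). The groups of Ctla4 overlapped, and its call was lost with TMM factors (adjusted p = 0.089), edgeR (0.11) and DESeq2 (0.10), without the filter (0.12), and without control replicates 2 or 3 or BMP9 overexpression replicates 5 or 6 (0.070 to 0.12). The call of Ctla4 was also lost with a term for the run time stamp, where the change was -0.26, as within the earlier stamp.

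Of the ligands of PD-1, Pdcd1lg2 rose and Cd274 did not pass the test. Pdcd1lg2 (chromosome 19, 29410919 to 29471161, plus strand), coding for PD-L2, had 41.0, 71.0 and 44.4 RPM in BMP9 overexpression replicates 4, 5 and 6, against 6.33, 12.1 and 20.5 RPM in control replicates 1, 2 and 3. The control libraries spread 3.24-fold between lowest and highest, yet the groups did not overlap. The rise was 4.05-fold (2.27 to 7.23, log2 fold change 2.02, SE 0.39, adjusted p = 0.0012), with 1.72 on the log2 scale within the earlier stamp.

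Cd274 (chromosome 19, 29367455 to 29388095, plus strand), coding for PD-L1, ends 22823 bases before Pdcd1lg2 begins. It had 157, 118 and 82.3 RPM in BMP9 overexpression replicates 4, 5 and 6, against 82.9, 90.0 and 107 RPM in control replicates 1, 2 and 3. The BMP9 overexpression libraries ran from below every control library to above every control library. The fold was 1.24 (0.809 to 1.90, log2 fold change 0.31, SE 0.29, adjusted p = 0.43), so a change of up to 1.90-fold in the higher direction lies within the interval. It was 0.75 on the log2 scale within the earlier stamp and 0.09 without BMP9 overexpression replicate 4 (adjusted p = 0.82), the library with the highest level.

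The ratio of Cd274 to Pdcd1lg2 within a library was 3.83, 1.67 and 1.85 in BMP9 overexpression replicates 4, 5 and 6, against 13.1, 7.44 and 5.20 in control replicates 1, 2 and 3. Every BMP9 overexpression library was below every control library. The mean log2 ratio of RPM + 1 was 1.17 ± 0.64 in BMP9 overexpression and 2.88 ± 0.60 in control libraries (SD, n = 3 each), a difference of -1.71 (exact two-sided permutation p = 0.1). The difference was -0.97 within the earlier stamp, where BMP9 overexpression replicate 4 is compared with the controls. Pdcd1, the gene of PD-1, was at 41.2 ± 16.4 RPM in BMP9 overexpression and 88.8 ± 18.7 RPM in control libraries (log2 fold change -1.16, adjusted p = 0.015; -0.71 within the earlier stamp). Its call was lost with TMM factors (-0.91, adjusted p = 0.052), edgeR (0.057), no filter (0.083), and without control replicate 3 (0.070) or BMP9 overexpression replicate 6 (0.092). With a term for the run time stamp the call was also lost, and the change was again -0.71. Rgmb, another receptor of PD-L2, was at 25.4 ± 8.04 RPM in BMP9 overexpression and 16.6 ± 2.31 RPM in control libraries (0.54, adjusted p = 0.23).

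**Figure D2:**
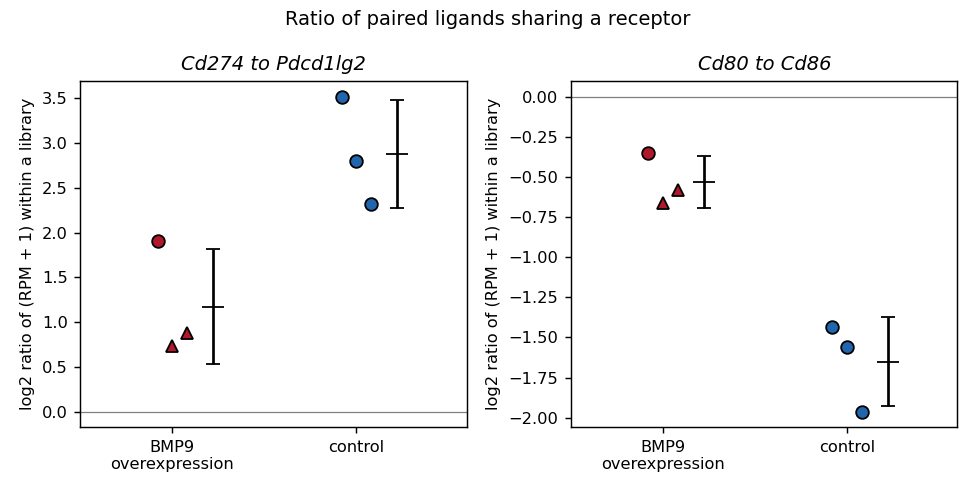
Log2 ratio of RPM + 1 within each library for Cd274 over Pdcd1lg2 (left) and Cd80 over Cd86 (right), BMP9 overexpression left of control, with mean and SD beside the points (n = 3 each). Circles are libraries under the earlier run time stamp and triangles those under the later one. The difference of means is -1.71 for Cd274 over Pdcd1lg2 and 1.12 for Cd80 over Cd86, with no overlap of groups in either.

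The other members of the B7 family were Cd276 and Icosl. Cd276 (chromosome 9, 58524298 to 58555437, minus strand), coding for B7-H3, had 36.5, 21.1 and 28.3 RPM in BMP9 overexpression replicates 4, 5 and 6, against 13.5, 8.32 and 14.5 RPM in control replicates 1, 2 and 3. The groups did not overlap, though the lowest BMP9 overexpression library and the highest control library were near each other. The rise was 2.26-fold (1.36 to 3.77, log2 fold change 1.18, SE 0.35, adjusted p = 0.016), with 1.55 on the log2 scale within the earlier stamp. The call was lost without control replicate 2 (adjusted p = 0.061), without BMP9 overexpression replicate 6 (0.057) and without the filter on low values (0.061).

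Icosl (chromosome 10, 78069302 to 78083913, plus strand) had 47.1, 32.2 and 36.9 RPM in BMP9 overexpression replicates 4, 5 and 6, against 26.8, 38.6 and 39.0 RPM in control replicates 1, 2 and 3. The groups overlapped, with 1 BMP9 overexpression library above all control libraries and 1 control library below all BMP9 overexpression libraries. The fold was 1.11 (0.711 to 1.74, adjusted p = 0.72). Icos, the gene of its receptor, was at 62.4 ± 45.7 RPM in BMP9 overexpression and 94.7 ± 44.3 RPM in control libraries, a change of -0.74 on the log2 scale (adjusted p = 0.22), against 0.37 within the earlier stamp.

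No change was called for the pair from the tumour necrosis factor ligand and receptor families, of which only Cd40 was tested. Cd40 (chromosome 2, 165055627 to 165072948, plus strand) had 37.0, 45.4 and 38.5 RPM in BMP9 overexpression replicates 4, 5 and 6, against 28.6, 24.2 and 32.0 RPM in control replicates 1, 2 and 3. The groups did not overlap, as for 16.8% of all tested genes with BMP9 overexpression higher, and both were narrow. The fold was 1.41 (0.920 to 2.17, log2 fold change 0.50, SE 0.29, adjusted p = 0.20), and 0.38 on the log2 scale within the earlier stamp. The call was made by DESeq2 on recovered reads (adjusted p = 0.047) and missed by edgeR (0.054).

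Cd40lg, the ligand that T cells show to CD40, was at 2.89 ± 3.60 RPM in BMP9 overexpression and 5.66 ± 2.94 RPM in control libraries (log2 fold change -1.05, adjusted p = 0.17). Tnfsf9 (chromosome 17, 57105325 to 57107757, plus strand), coding for the 4-1BB ligand, was the lowest of the 10 genes. It had 4.56, 3.18 and 4.44 RPM in BMP9 overexpression replicates 4, 5 and 6, against 3.93, 5.30 and 5.50 RPM in control replicates 1, 2 and 3, from 9, 14 and 126 reads and from 18, 7 and 11 reads. The groups overlapped. Without the filter Tnfsf9 entered the test, at -0.23 on the log2 scale (SE 0.34, adjusted p = 0.71), and it was -0.04 (SE 0.47, adjusted p = 0.96) with all libraries thinned to the depth of the shallowest. Its receptor Tnfrsf9 was at 191 ± 53.7 RPM in BMP9 overexpression and 747 ± 35.4 RPM in control libraries (-1.997, SE 0.27, adjusted p = 6.9e-05; -1.60 within the earlier stamp).

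Pvr (chromosome 7, 19903578 to 19921160, minus strand) had 101, 64.9 and 82.98 RPM in BMP9 overexpression replicates 4, 5 and 6, against 45.6, 29.5 and 47.5 RPM in control replicates 1, 2 and 3. Every BMP9 overexpression library was above every control library. The rise was 2.01-fold (1.29 to 3.14, log2 fold change 1.01, SE 0.30, adjusted p = 0.017), with 1.31 on the log2 scale within the earlier stamp. The call was lost without control replicate 2 (adjusted p = 0.069), without BMP9 overexpression replicate 6 (0.056) and without the filter (0.053).

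All 3 receptors of Pvr were lower. Cd96 was at 13.5 ± 3.03 RPM in BMP9 overexpression and 162 ± 46.8 RPM in control libraries (log2 fold change -3.47, SE 0.31, adjusted p = 3.6e-06). Cd226 was at 18.2 ± 1.97 RPM in BMP9 overexpression and 94.0 ± 14.3 RPM in control libraries (-2.30, SE 0.28). Tigit was at 8.94 ± 3.85 RPM in BMP9 overexpression and 35.1 ± 7.05 RPM in control libraries (-1.92, SE 0.36). Within the earlier stamp these values were -3.16, -2.22 and -1.82.

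Lgals9 (chromosome 11, 78962974 to 78984946, minus strand) had 103, 129 and 129 RPM in BMP9 overexpression replicates 4, 5 and 6, against 101, 166 and 114 RPM in control replicates 1, 2 and 3. The highest and the lowest library were both controls. The fold was 0.964 (0.641 to 1.45, log2 fold change -0.05, adjusted p = 0.90), and the sign turned with TMM factors (0.20). Havcr2, the gene of TIM-3, which exhausted T cells and also macrophages and dendritic cells carry, was at 68.1 ± 20.5 RPM in BMP9 overexpression and 18.9 ± 2.12 RPM in control libraries (1.76, SE 0.31, adjusted p = 0.00052; 2.22 within the earlier stamp). It was the only one of the 11 binding partners listed (10 receptors and Cd40lg) that passed the test in the higher direction.

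**Figure D3:**
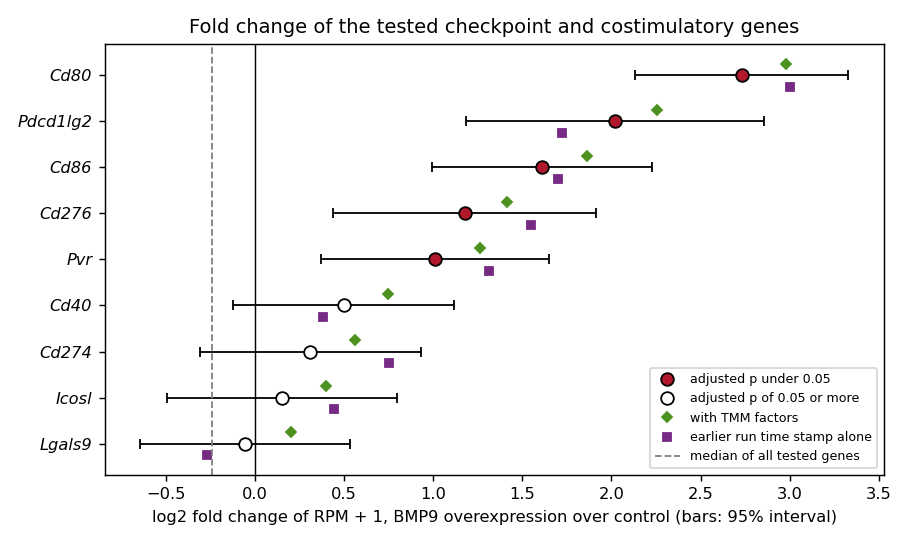
Log2 fold change of RPM + 1, BMP9 overexpression over control, for the 9 tested genes, with 95% intervals from limma. Red points passed an adjusted p of 0.05, green diamonds are values with TMM factors, purple squares values within the earlier run time stamp, and the dashed line is the median of all tested genes at -0.24. Cd80 lies highest at 2.73 and Lgals9 lowest at -0.05, and only Lgals9 changes sign between the scalings shown.

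Over these partners, 7 of 11 were lower and 1 was higher, with a median log2 fold change of -1.16. Over all tested genes 22.5% were lower and 12.7% higher, with a median of -0.24. With TMM factors 5 were lower and 1 was higher (median -0.91), and the median was -1.48 within the earlier stamp. Markers of T and NK cells, which carry most of these receptors, were lower in the same libraries. All 13 tested markers were lower, with a median log2 fold change of -2.82, which was smaller within the earlier stamp (-2.21). The 14 measured summed to 741 to 1365 RPM in BMP9 overexpression and 5717 to 5940 RPM in control libraries. Their part in the fall of the receptors was not tested.

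Other ligands of these pathways changed in both directions. Of 17 measured, 8 were tested, 2 rose and 2 fell, with a median log2 fold change of -0.69. Over all tested genes 12.7% were higher and 22.5% lower. Ceacam1, an adhesion molecule that also binds TIM-3, was at 212 ± 86.1 RPM in BMP9 overexpression and 34.2 ± 2.24 RPM in control libraries (2.52, SE 0.31, adjusted p = 2.8e-05). Nectin1, an adhesion molecule that binds CD96, rose by 1.08 (SE 0.36, adjusted p = 0.030), a call that was lost without the filter, and without control replicates 1 or 3 or BMP9 overexpression replicates 4 or 6. Tnfsf8, the CD30 ligand of activated lymphocytes, was at 27.0 ± 4.96 RPM in BMP9 overexpression and 127 ± 19.8 RPM in control libraries (-2.20, SE 0.28, adjusted p = 4.0e-05). Tnfsf14, the ligand LIGHT, had a change of -0.88 (SE 0.31, adjusted p = 0.036), whose call was lost with TMM factors (-0.63, adjusted p = 0.13), quantile normalization (0.14), edgeR (0.12) and DESeq2 (0.11), and without any 1 library other than BMP9 overexpression replicate 4 (0.063 to 0.11). With a term for the run time stamp the call of Tnfsf14 was also lost, and the change was -0.70, as within the earlier stamp.

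**Figure D4:**
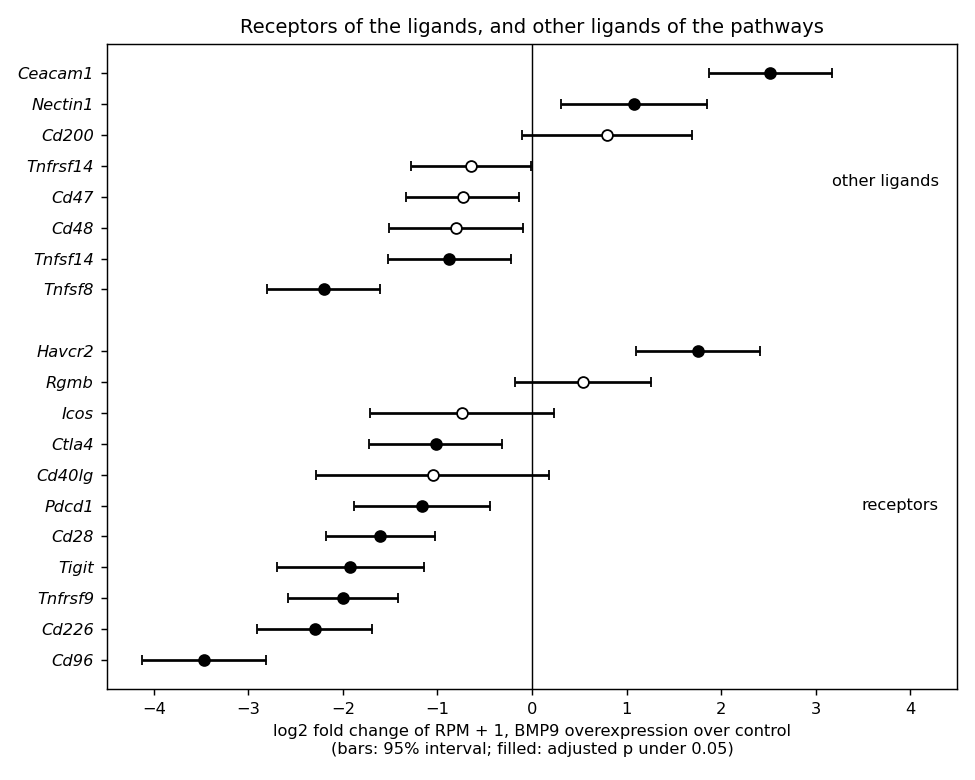
Log2 fold change of RPM + 1, BMP9 overexpression over control, for the 8 tested other ligands (upper block) and the 10 receptors and Cd40lg (lower block), with 95% intervals from limma. Filled points passed an adjusted p of 0.05. Ceacam1 at 2.52 and Havcr2 at 1.76 lie highest in their blocks, and Cd96 lies lowest at -3.47.

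Genes of the interferon-gamma axis, which induces several of these ligands, changed in both directions. Of 15 tested, 2 rose and 2 fell (median 0.13), against 12.7% higher and 22.5% lower over all tested genes. The counts were 4 higher and 2 lower with TMM factors (median 0.36) and with edgeR (0.68), and 6 higher and 2 lower with DESeq2 (0.67), and the median was -0.48 within the earlier stamp. Ifng itself was at 27.1 ± 17.2 RPM in BMP9 overexpression and 90.7 ± 25.4 RPM in control libraries (log2 fold change -1.83, SE 0.38, adjusted p = 0.0018). Ifngr2, a chain of its receptor, was higher by 1.21 (SE 0.26, adjusted p = 0.0024). Ciita, the activator of MHC class II genes, was higher by 1.24 (SE 0.29, adjusted p = 0.0042), with 0.92 within the earlier stamp. Its call was lost with a term for the run time stamp, where the change was also 0.92. Nlrc5, the activator of MHC class I genes, had a change of -1.40 (SE 0.34, adjusted p = 0.0051).

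Of 10 tested genes that carry CD40 and NF-κB signals, 3 fell and none passed the test in the higher direction. Over all tested genes 22.5% were lower and 12.7% higher. Traf1, an adaptor of tumour necrosis factor receptors, was at 14.0 ± 1.63 RPM in BMP9 overexpression and 62.1 ± 4.81 RPM in control libraries (-2.08, SE 0.29, adjusted p = 8.8e-05). Traf2, another adaptor, had a change of -1.77 (SE 0.28, adjusted p = 0.00027). Birc3, a ubiquitin ligase recruited by both, had a change of -0.89 (adjusted p = 0.022) that was lost with TMM factors (-0.63, adjusted p = 0.099), edgeR (0.12), DESeq2 (0.11), no filter (0.056) and without control replicates 1, 2 or 3 or BMP9 overexpression replicate 4 (0.053 to 0.067). Nfkbia, the inhibitor induced by NF-κB, was at 840.2 RPM in BMP9 overexpression replicate 4 and at 218 and 222 RPM in replicates 5 and 6, against 158 to 185 RPM in control libraries. Its change of 0.99 on the log2 scale missed the threshold (adjusted p = 0.073) and passed it with TMM factors (1.24, adjusted p = 0.031), edgeR (0.010) and DESeq2 (0.0021). It also passed without BMP9 overexpression replicates 5 (0.028) or 6 (0.042). Within the earlier stamp, where replicate 4 alone is set against the controls, the change was 2.27. Without BMP9 overexpression replicate 4, the library that stands apart, it was 0.35 (adjusted p = 0.30).

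Macrophage and monocyte markers were higher in the libraries in which the ligands rose. All 12 tested markers rose, against 12.7% of all tested genes, with a median log2 fold change of 2.11 (2.62 within the earlier stamp). Without the filter, 10 of 14 were called higher. The 14 measured markers summed to 18964 to 25066 RPM in BMP9 overexpression and 4787 to 7359 RPM in control libraries. Lyz2, the gene of lysozyme, gave the largest share of that sum, with 10540.2 RPM on average in BMP9 overexpression and 4528 RPM in control libraries, and its log2 fold change was 1.21. On the log2 scale Itgam, the integrin CD11b, rose by 3.21 and Cd68, a lysosomal protein, by 2.77. Per 1000 RPM of these markers, Cd80 was at 9.17, 7.35 and 5.89 RPM in BMP9 overexpression replicates 4, 5 and 6, against 3.08, 4.27 and 3.81 RPM in control replicates 1, 2 and 3. The groups of Cd80 did not overlap on this scale either, and BMP9 overexpression was higher, as for 1.27% of the other tested genes. Pdcd1lg2, Cd86 and Cd276 overlapped between groups, and Cd274, Cd40, Icosl, Lgals9, Pvr and Tnfsf9 were lower in every BMP9 overexpression library than in every control library, as were 86.2% of the other tested genes. Against the mean log2 level of the tested markers, which gives each marker the same weight, Cd80 was again higher in every BMP9 overexpression library (difference 0.59), as were 0.709% of the other tested genes. On that scale Pdcd1lg2 alone overlapped, and Cd86 (-0.53), Cd276 (-0.97) and the other 6 genes were lower in every BMP9 overexpression library, as were 92.5% of the other tested genes. These levels are a description with no test, and the part of the macrophage and monocyte markers in the rise of the ligands was not tested.

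**Figure D5:**
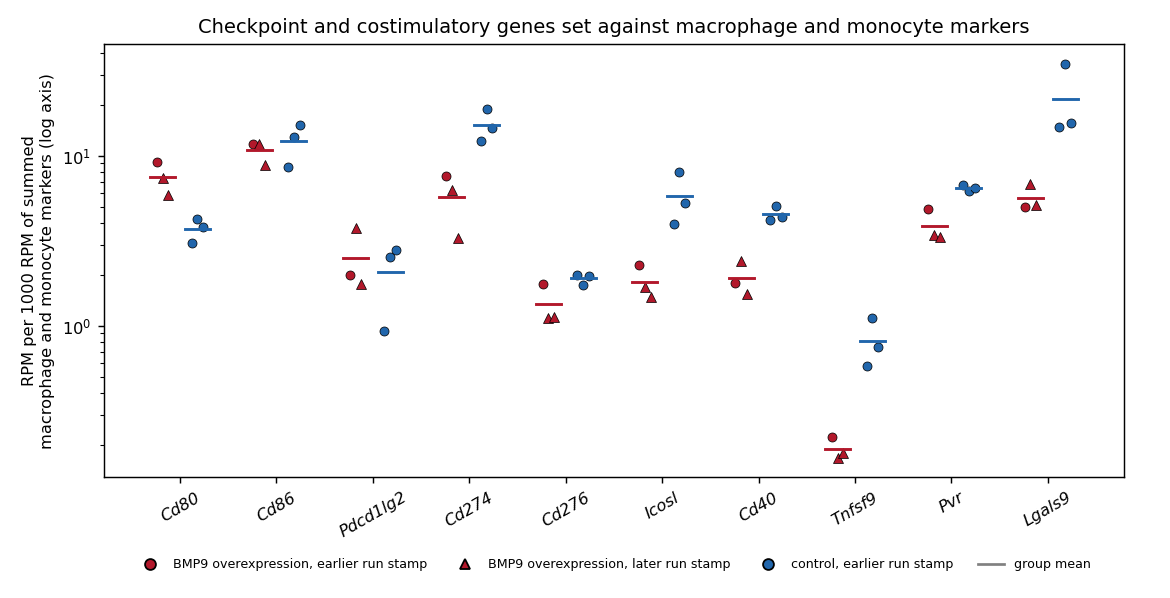
RPM of each gene per 1000 RPM of the summed macrophage and monocyte markers of the same library, on a log axis, BMP9 overexpression (red) left of control (blue). Circles are libraries under the earlier run time stamp, triangles those under the later one, and lines are group means. Cd80 is higher in every BMP9 overexpression library, Cd86, Pdcd1lg2 and Cd276 overlap, and the other 6 genes are lower.

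Dendritic cells and B cells can also carry these molecules. Of 9 dendritic cell markers, 3 were lower and none was higher, against 22.5% lower and 12.7% higher over all tested genes. They summed to 569.8 to 829 RPM in BMP9 overexpression and 1299 to 1976 RPM in control libraries. Irf8 gave most of both sums, with 508 RPM in BMP9 overexpression and 1380 RPM in control libraries on average. Of 8 markers of activated dendritic cells 4 were tested and none passed, with sums of 306 to 398 RPM in BMP9 overexpression and 203 to 306 RPM in control libraries. Lamp3 among them was at or near 0. Of 7 B cell markers 1 rose, Cd22, with sums of 102 to 160.0 RPM in BMP9 overexpression and 99.1 to 146 RPM in control libraries. Of 4 tested endothelial markers Flt1 rose and Kdr fell. Both calls were lost without the filter (adjusted p = 0.078 for Flt1 and 0.13 for Kdr). With a term for the run time stamp both were lost as well. That of Kdr was also lost with TMM factors (0.065), quantile normalization (0.13) and thinning to the shallowest library (0.081). The same held for Kdr without control replicate 2 (0.12) or BMP9 overexpression replicate 6 (0.092). The 14 summed to 279 to 406 RPM in BMP9 overexpression and 387 to 581 RPM in control libraries, and 9 of 14 averaged under 1 RPM in BMP9 overexpression and 3 of 14 in control libraries. Pecam1, the gene of CD31, gave most of that sum, with 303 ± 53.5 RPM in BMP9 overexpression and 448 ± 84.3 RPM in control libraries. Cdh5, the gene of an endothelial junction protein, was at 6.15 RPM in BMP9 overexpression and 9.81 RPM in control libraries and Tek, an angiopoietin receptor, at 0.42 RPM in BMP9 overexpression and 0.471 RPM in control libraries.

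Among the remaining lists, 4 of 4 tested neutrophil markers rose, of 8 measured (sums of 128 to 254 RPM in BMP9 overexpression and 22.7 to 42.0 RPM in control libraries). Of 4 tested platelet markers, of 7 measured, 3 rose (610.5 to 849 RPM in BMP9 overexpression and 66.6 to 123 RPM in control libraries). Pf4 gave most of the platelet sum in BMP9 overexpression, at 619 of 712 RPM on average. The tested platelet marker Itgb3 had a change of -1.08 (adjusted p = 0.074). Over all tested genes 12.7% were higher and 22.5% lower. Of 13 genes that respond to tissue dissociation 7 rose, and 3 without the filter (5717 to 7886 RPM in BMP9 overexpression and 4295 to 5528 RPM in control libraries). Of 4 tested fibroblast and pericyte markers 2 rose and 1 fell, against 1 and 0 without the filter (39.2 to 56.2 RPM in BMP9 overexpression and 18.2 to 70.3 RPM in control libraries). Of 3 tested epithelial markers Krt18 rose, at 6.67 RPM in BMP9 overexpression and 2.04 RPM in control libraries on average. This call was lost without control replicate 3 (adjusted p = 0.069) or BMP9 overexpression replicate 6 (0.078). It was also lost without the filter (0.067), with thinning to the shallowest library (0.064) and with a term for the run time stamp. S100a8 (neutrophil), Ppbp (platelet), Dcn (fibroblast) and Krt18 met the filter in BMP9 overexpression libraries alone. Cspg4 (pericyte), and Kdr among the endothelial markers, met it in control libraries alone. The filter thus favours the direction in which these genes were called. Cldn3 and Cldn4 were at 0 in all 6 libraries. The part of these markers in the ligand values was not tested. Antisense or other overlapping genes are annotated at Cd274, Pdcd1lg2, Cd276, Pvr and Tnfsf9, and whether counting used strand is not given in the sources used here, so reads of overlapping transcripts cannot be told apart there.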

How the data were processed

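Transcripts were measured in 6 libraries of CD31-positive cells with an Ion AmpliSeq mouse transcriptome panel, which amplifies 1 short segment per gene by PCR, per the labels' protocols. The submitters' processing notes name the mm10 build. No source used here gives the aligner or the counter. The deposited values are RPM, reads of a gene scaled by the authors to the total of the library, as the sums of the columns show. Within a library every nonzero value came to a whole number of reads (100% within 0.05 reads), so read counts were recovered from the deposited RPM. Reads carry no molecular identifiers.

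Titles gave the group and replicate of each library. Genes that reached 5 RPM in 3 or more libraries were fitted together on log2(RPM + 1) by limma-trend, using limma 3.58.1 in R 4.3.3. The p-values were adjusted by Benjamini-Hochberg over all of these genes at a threshold of 0.05. Every adjusted p comes from this fit unless an alternative listed below, such as TMM factors, DESeq2 or edgeR, is named. That over the ratios comes from the permutation test. A log2 fold change is the mean log2(RPM + 1) of BMP9 overexpression minus that of control libraries, which understates changes of low genes. Ratios of paired genes were compared by an exact two-sided permutation test. The alternatives were pseudocounts of 0.5 and 5, no filter, a mean of at least 20 RPM, array weights, TMM factors, no trend, quantile normalization, a term for the run time stamp, the earlier stamp alone, thinning to the shallowest library, edgeR 4.0.16 and DESeq2 1.42.0 on recovered reads, and leaving out each library. The fit was tested on simulated data. The 10 genes and 15 further lists (4 of pathway genes, 11 of markers, 174 distinct genes, of which 9 are not analysed here) were chosen with earlier results of these data known. From each pathway list up to 4 tested genes with the smallest p were to be named, and from each marker list its sum and up to 2 genes, of which only those a result touches are given. The receptors outside that rule, Nfkbia, Pecam1, Cdh5, Tek, Lamp3, Itgb3, Cldn3 and Cldn4 were named after their values were seen. The levels per macrophage marker were added after seeing the data. Gene coordinates are those of GENCODE M21. Promoter sequences are those of RefSeq on GRCm38.p6, whose chromosomes are those of mm10.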

Additional observations from a re-analysis of the deposited data

How the results depend on the processing

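No paired analysis was possible because the groups share no replicate number. Cd80, Cd86 and Pdcd1lg2 kept their direction and their call in all 19 alternatives, with log2 fold changes of 2.54 to 3.04, 1.44 to 1.91 and 1.62 to 2.44. Cd276 (0.95 to 1.55) and Pvr (0.80 to 1.31) kept their direction in all and their call in 16 of 19, and the number of the 10 genes called higher was 3 with no filter on low values and 3 to 5 when a library was left out. Among the 19, the earlier stamp alone sets 1 BMP9 overexpression library against 3, so its spread is that of the controls. A term for the run time stamp gave the same log2 fold changes, because the later stamp holds no control library. These alternatives are therefore not separate checks. Leaving out a library leaves fewer libraries to test, and dropping the filter raised the genes tested from 9460 to 18274. Over all genes, 2311 to 3552 were called when a library was left out and 2360 without the filter. Why calls were lost was not tested. The number called lower was 0 in all 19. Cd40 was called in 1 of 19 and Cd274, Icosl and Lgals9 in none. The sign turned for Cd274 with array weights (-0.047), for Icosl without control replicate 1 (-0.019, within a range up to 0.27 when a library was left out) and for Lgals9 with TMM factors (0.20), quantile normalization (0.036), array weights (0.18), edgeR (0.18), DESeq2 (0.16) and without control replicate 2 (0.16) or BMP9 overexpression replicate 4 (0.06), within a range of -0.20 to 0.16 when a library was left out. It turned for Icos (0.37) and Ccr7, a chemokine receptor of activated dendritic cells (-0.27), with a term for the run time stamp and within the earlier stamp. For the level per macrophage marker it turned for Pdcd1lg2 with the mean log2 of the markers as denominator (-0.12) and without control replicate 1 (-0.17, up to 0.62 when a library was left out), and for Cd86 without control replicate 3 (0.015, down to -0.40). The cause was not tested. The difference in the log2 ratio kept its sign in all alternatives, at -2.08 to -0.97 for Cd274 to Pdcd1lg2 and 0.96 to 1.30 for Cd80 to Cd86. Over all genes 3330 were called, 5102 with array weights (3351 lower), and 1383 were lower with TMM factors, where 1629 were higher. Without control replicate 1 the number lower was 1367, within a range of 1367 to 2312 when a library was left out. The calls with edgeR numbered 3114 and with DESeq2 3317. For the 45 other genes, 747 values under alternatives kept direction and call, 71 lost the call, 21 gained one and 4 changed sign. Depth limits Tnfsf9 most, at 7 to 126 reads a library, and reads are PCR copies, so counting error is a lower limit of the error.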
